A study of Mus musculus with 6 samples.

Results

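The genes described here encode 43 nuclear receptor coregulators, of 21883 protein-coding genes on the assembled mouse chromosomes. They are a list of names of known coactivators, corepressors, Mediator subunits and chromatin regulators, and the rule that lists them uses no peak values. A nuclear receptor such as estrogen receptor alpha (ERα) acts on a gene largely through such partners. With agonist bound, it recruits p160 coactivators, which bring in the acetyltransferases p300 and CBP and arginine methyltransferases, while Mediator links the receptor to RNA polymerase II and SWI/SNF complexes move nucleosomes. Corepressor complexes built on NCoR carry histone deacetylases and act the other way. In the brain, Ncoa1 (SRC-1) is known as a partner of steroid receptors in the hypothalamus. The question asked of these genes was whether ERα peaks lay at the genes of its own partners, and whether the lists with such peaks came from vehicle or from estradiol.

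ERα was profiled by CUT&RUN, in which an antibody directs a nuclease to a chromatin protein and the released DNA is sequenced. Nuclei were isolated from the limbic system of adult male C57/BL6 mice. All mice, controls included, had been gonadectomized at 10 to 12 weeks of age and were injected 3 weeks later. The vehicle group received corn oil and the estradiol group 5 µg of estradiol benzoate under the skin, 4 h before nuclei were isolated, with 3 libraries in each group and no females. Limbic tissue holds many cell types, and fewer cells with a bound site and less binding per cell cannot be told apart. The labels do not say whether libraries of a group came from different animals. Each p-value therefore sets a group difference only against the spread of these libraries, and that spread may be technical.

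Each library has a single deposited list of called peaks. The lists held 5421, 13717 and 20541 peaks in vehicle replicates 1, 2 and 3 and 11082, 14123 and 17558 in estradiol replicates 1, 2 and 3. Vehicle replicate 1 is the shortest list. Replicate 3 of both groups differs from the others in its labels and in the style of its peak names and was handled as a batch of its own. Peak summits held 4 fragments at the least and 6 at the median in every list, so a gene without a peak is not a gene shown to be unbound.

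A peak was given to a coregulator gene if it lay inside the gene's RefSeq span, or within 50 kb of it where that gene was the nearest protein-coding gene. Peaks within 1000 bp of either end of the span are called gene-end peaks, and the gene's other peaks distal. Overlapping or touching peaks of the 6 lists were merged into regions, which gave 124 regions for the 43 genes of 39374 in all. Of the 124, 33 were gene-end regions, 73 lay inside a gene away from its ends and 18 outside. Marker genes with a gene-end peak in at least 1 list (37.7% of all genes) numbered 5 of 5 for neurons, 2 of 4 for astrocytes, 2 of 4 for oligodendrocytes, 0 of 4 for microglia and 0 of 3 for endothelium. Distal peaks (40.8% of all genes) were found at 5, 3, 4, 2 and 2 of these. Such peaks do not measure expression, so they do not check the tissue.

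The highest peaks of the set lay at annotated transcript starts of Zmynd8, Sin3a, Hdac4 and Prmt1, and the DNA just upstream of those starts is printed to show what lies under or beside them. Each line gives the 250 bases before the start, read 5′ to 3′ along the gene's strand, from RefSeq on GRCm38.p6, whose coordinates are those of mm10. The windows are chr2:165884839-165885088 (minus strand) for Zmynd8, chr9:57076126-57076375 (plus strand) for Sin3a, chr1:92180342-92180591 (minus strand) for Hdac4 and chr7:44986421-44986670 (minus strand) for Prmt1. Capitals mark matches, on either strand, to the full estrogen response element (ERE; GGTCA, any 3 bases, TGACC), to GGTCA, which is a single arm of it, to the AP-1 site TGANTCA, the Sp1 site GGGCGG, the NRF1 site (GCGC, any 2 bases, GCGC) or the CCAAT box. A full element would also be counted as a single arm.
Zmynd8: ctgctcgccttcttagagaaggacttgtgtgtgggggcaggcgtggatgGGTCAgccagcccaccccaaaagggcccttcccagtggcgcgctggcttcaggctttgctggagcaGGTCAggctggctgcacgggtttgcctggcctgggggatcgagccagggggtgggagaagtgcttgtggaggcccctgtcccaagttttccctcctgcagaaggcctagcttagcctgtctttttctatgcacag
Sin3a: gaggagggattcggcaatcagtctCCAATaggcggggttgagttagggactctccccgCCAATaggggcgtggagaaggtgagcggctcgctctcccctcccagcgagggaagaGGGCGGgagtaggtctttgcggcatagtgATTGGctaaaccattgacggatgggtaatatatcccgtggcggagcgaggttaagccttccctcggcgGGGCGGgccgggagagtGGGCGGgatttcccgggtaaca
Hdac4: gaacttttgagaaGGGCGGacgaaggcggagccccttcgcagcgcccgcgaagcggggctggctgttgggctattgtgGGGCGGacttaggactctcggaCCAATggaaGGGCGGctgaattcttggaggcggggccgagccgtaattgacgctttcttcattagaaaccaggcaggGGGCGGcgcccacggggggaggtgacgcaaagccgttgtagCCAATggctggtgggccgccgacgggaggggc
Prmt1: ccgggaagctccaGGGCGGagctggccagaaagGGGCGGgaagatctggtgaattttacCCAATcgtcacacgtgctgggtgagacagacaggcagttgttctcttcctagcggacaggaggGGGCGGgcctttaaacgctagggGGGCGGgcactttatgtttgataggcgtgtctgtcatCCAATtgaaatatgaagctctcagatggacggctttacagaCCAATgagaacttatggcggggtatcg
None of these windows held the full element. The Zmynd8 window held 2 single arms and none of the other motifs, and its peak lay almost wholly downstream of it. The Sin3a window held 3 Sp1 sites and 3 CCAAT boxes, the Hdac4 window 4 and 2, and the Prmt1 window 4 and 3. At Hdac4 and Prmt1 the merged region covered the whole upstream window, and at Sin3a most of it.

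RefSeq entries were found for 37 of the 43 genes (not for Ncoa2, Ncoa3, Carm1, Kdm4b, Hdac1 and Hdac3), with 51 upstream windows, against 21262 windows of all protein-coding genes. The full ERE was in 0% of the coregulator windows and 0.0470% of all windows, and a single arm in 23.5% and 34.2%. Sp1 sites were in 62.7% of coregulator windows and 42.6% of all, CCAAT boxes in 25.5% and 35.4%, NRF1 sites in 9.80% and 6.85% and AP-1 sites in 1.96% and 6.13%. In the 12 coregulator windows that overlapped a region found in all 6 lists, Sp1 was in 66.7%, CCAAT in 50.0%, NRF1 in 25.0%, a single arm in 33.3%, and the full ERE and AP-1 in 0%. The GC content was 65.2% at the median in those 12 and 63.2% in the other 39, against 55.6% over all windows. A match shows only that these letters are present, and windows of a gene with several starts are not independent.

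Peaks were found at most of these genes in both groups. A peak in at least 1 list was assigned to 40 of 43 (93.0%), against 60.9% of all protein-coding genes. Of the 43, 15 had both gene-end and distal peaks, 12 had gene-end peaks and no distal ones, and 13 the reverse. The remaining 3 had none: Ncoa6, an Ncoa coactivator, Med12, a subunit of the Mediator kinase module, and Hdac3, the deacetylase of the NCoR complex. At Hdac3 a region lay 1 bp beyond the end of the gene, but Rell2 was the nearest gene; it had a peak in vehicle replicate 3 (−log10 q 3.54). Coregulator genes are long, with a median span of 77.8 kb (3.08 to 353 kb) against 17.2 kb for all protein-coding genes, and a longer span has more room for distal peaks.

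**Figure D1:**
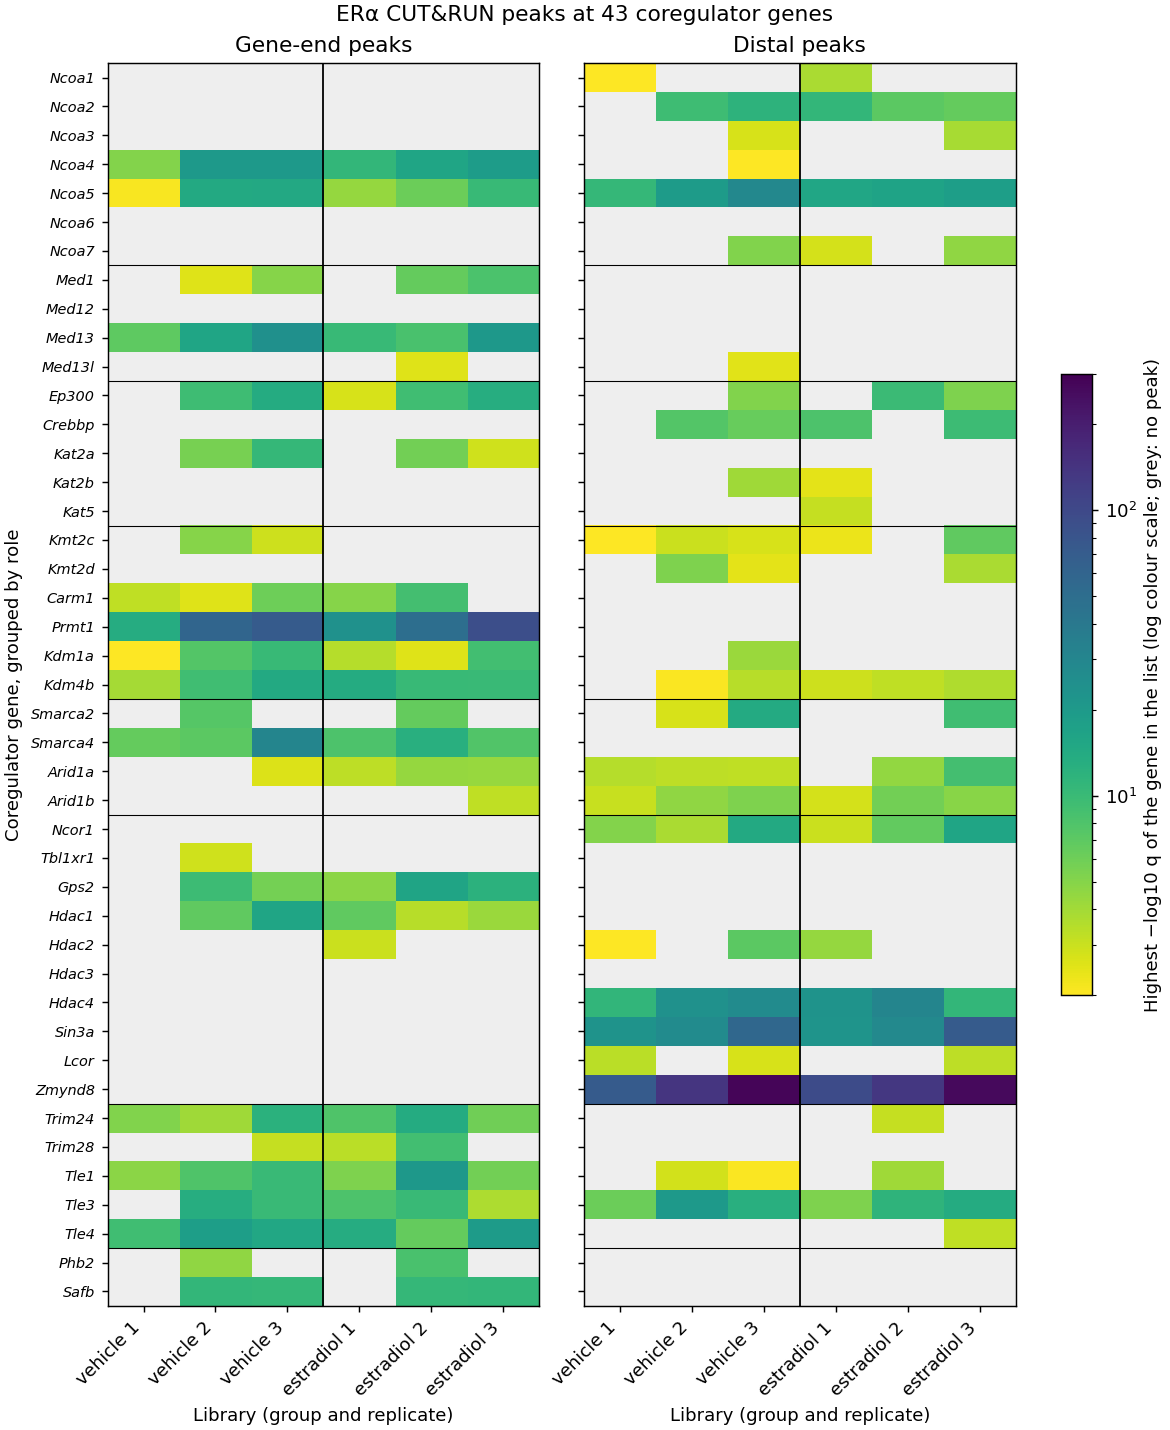
Highest −log10 q among the gene-end peaks (left) and distal peaks (right) of each of the 43 genes (rows, grouped by role) in the 6 libraries (columns), on a log colour scale with grey for no peak. Zmynd8 and Prmt1 have the darkest rows, and 10 genes on the left and 7 on the right are filled in all 6 columns.

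Gene-end peaks in all 6 lists were found at 10 of 43 coregulator genes (23.3%), against 9.39% of all genes. They were Ncoa4, Ncoa5, Med13, Prmt1, Kdm1a, Kdm4b, Smarca4, Trim24, Tle1 and Tle4. In at least 1 list the numbers were 27 of 43 and 37.7% of all genes. No coregulator gene had a gene-end peak in every estradiol list and in no vehicle list (0.228% of all genes did), nor the reverse (0.0457%). Peaks in more estradiol than vehicle lists were seen at 9 genes (12.6% of all genes) and in more vehicle than estradiol lists at 3 (8.72% of all genes). The 9 were Med13l, Ep300, Arid1a, Arid1b, Gps2, Hdac1, Hdac2, Trim28 and Tle3. In 4 of these (Ep300, Gps2, Hdac1 and Tle3) the only list without a peak was vehicle replicate 1. Without that list, 14 genes had a gene-end peak in every remaining list. Over all genes, 9.39% had gene-end peaks in all 6 lists. A further 5.24% had them in 3 estradiol and any 2 vehicle lists. The share of all genes without vehicle replicate 1 was not counted. At Arid1a, another of the 9, the gene-end peaks lay in different regions, each in 1 or 2 lists.

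Distal peaks in all 6 lists were found at 7 genes (16.3%), against 4.51% of all genes: Ncoa5, Arid1b, Ncor1, Hdac4, Sin3a, Zmynd8 and Tle3. For Arid1b these were peaks at different places, with no region shared by all lists. Distal peaks in at least 1 list were found at 28 genes (40.8% of all genes). There were 7 genes with distal peaks in more estradiol than vehicle lists (14.8% of all genes) and 10 with the reverse (12.7% of all genes). None had distal peaks in at least 2 lists of a group and in no list of the other (1.5% of all genes for estradiol and 1.59% for vehicle), and so none in 3 lists of a group and 0 of the other (0.27% and 0.096%). The number of lists per gene was 2 at the median for gene-end and for distal peaks alike, and 0 over all genes for both.

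**Figure D2:**
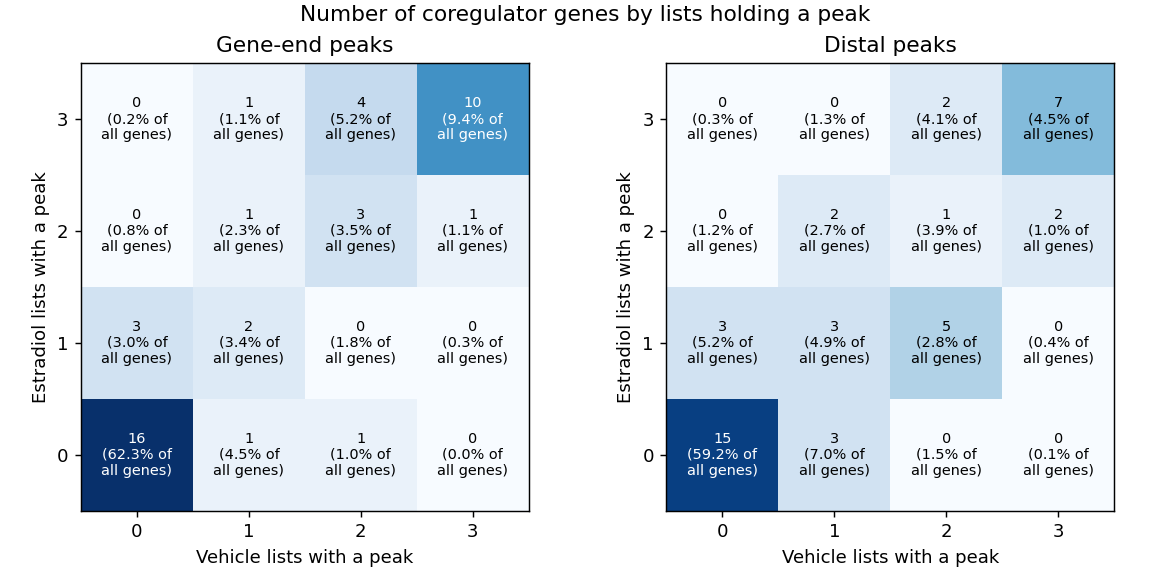
Number of the 43 coregulator genes by how many vehicle lists (horizontal) and estradiol lists (vertical) held a peak, for gene-end (left) and distal peaks (right), with the percent of all protein-coding genes in brackets. Both grids are filled at no list (16 and 15 genes) and at all 6 lists (10 and 7 genes), and the top left cells, every estradiol and no vehicle list, hold 0.

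No difference between groups in the number of coregulator genes with a peak was detected beyond the spread of the libraries. Gene-end peaks were found at 11, 22 and 21 of the 43 genes in vehicle replicates 1, 2 and 3 and at 18, 23 and 19 in the estradiol replicates. The groups overlapped, and vehicle replicate 1, the shortest list, stood lowest. The means were 18.0 ± 6.08 (SD, n = 3) and 20.0 ± 2.65 (SD, n = 3), a difference of 2 genes (two-sided exact permutation p = 0.8; the smallest p that 3 against 3 allows is 0.1). Within replicates 1 and 2 the difference was 4, and in replicate 3, with 1 library per group, it was -2.

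Distal peaks were found at 12, 15 and 24 genes in the vehicle libraries and at 16, 13 and 19 in the estradiol libraries. These ranges overlapped too, with vehicle replicate 3, the longest list, on top. The means were 17.0 ± 6.25 (SD, n = 3) and 16 ± 3.00 (SD, n = 3), a difference of -1 gene (two-sided exact permutation p = 0.9), which was 1 within replicates 1 and 2 and -5 in replicate 3.

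As a share of the list, peaks of the 43 genes made up 0.553%, 0.365% and 0.341% of vehicle replicates 1, 2 and 3 and 0.370%, 0.326% and 0.353% of the estradiol replicates. The shortest list had the highest share. The means were 0.420% ± 0.117 (SD, n = 3) and 0.350% ± 0.0223 (SD, n = 3), a difference of -0.0700 percentage points (two-sided exact permutation p = 0.5), which was -0.111 within replicates 1 and 2 and 0.0123 in replicate 3. Adjusted by Benjamini-Hochberg over these 3 tests, p was 0.9 for each. In each of the 6 lists the percent of coregulator genes with a peak was above that of all genes: 25.6% to 53.5% against 12.1% to 30.6% for gene-end peaks, and 27.9% to 55.8% against 8.53% to 29.2% for distal peaks.

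**Figure D3:**
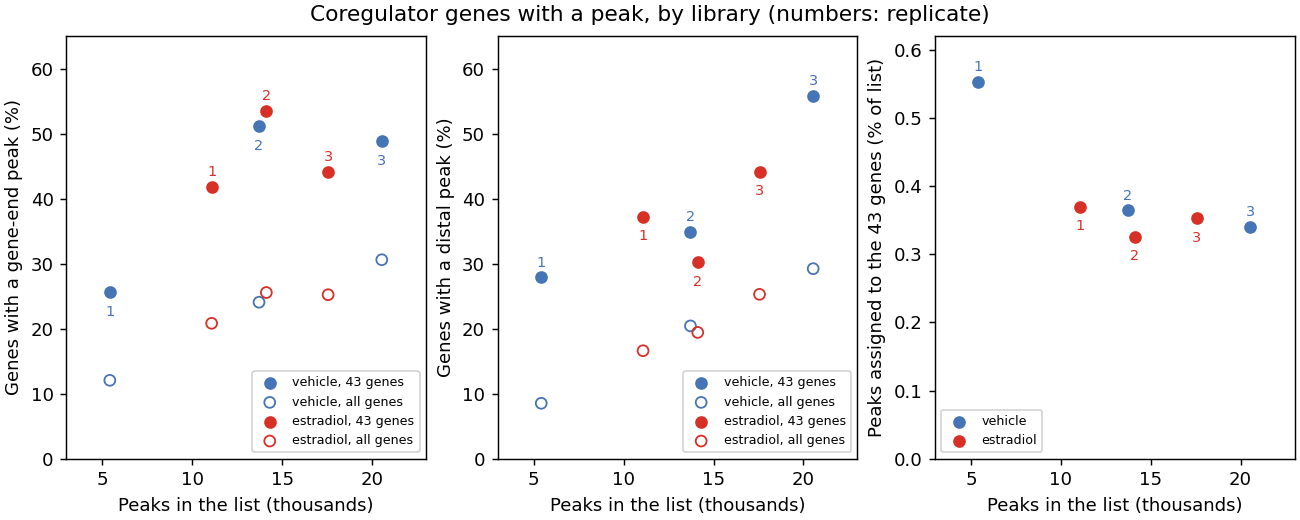
Percent of genes with a gene-end peak (left) or a distal peak (middle), and percent of the list's peaks given to the 43 genes (right), against the number of peaks in the list, with replicate numbers beside the points. Filled points are the 43 coregulator genes and open points all protein-coding genes: the filled points lie above the open ones in every list, and vehicle (blue) and estradiol (red) points overlap.

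The merged regions show how much of this was shared. Of the 124 regions, 70 (56.5%) had a peak in a single list, against 58.9% of all regions, and 19 (15.3%) in all 6, against 7.27%. Of 33 gene-end regions, 6 were in a single list (18.2%, against 30.8% of the gene-end regions of all genes) and 11 in all 6 (33.3%, against 21.8%). Of 91 distal regions, 64 were in a single list (70.3%, against 65.3% of the distal regions of all genes) and 8 in all 6 (8.79%, against 3.29%). Gene-end regions found in all 6 lists were 263 bp wide at the median, with summits of 4 to 74 fragments (median 12). Gene-end regions found in a single list were 39.5 bp wide at the median, with summits of 4 to 7 fragments (median 5). Distal regions found in all 6 lists were 321.5 bp wide at the median, with summits of 4 to 201 fragments (median 15). Distal regions found in a single list were 44 bp wide at the median, with summits of 4 to 19 fragments. Their median of 4 was the fewest that any called peak had.

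Among the coactivators of the p160 and wider Ncoa group, 2 of 7 genes had gene-end peaks in all 6 lists (9.39% of all genes). The other 5 had none at their ends. Ncoa4, which encodes a coactivator also known as the cargo receptor for ferritin autophagy, had a region over its start at chr14:32159788-32159971. Its −log10 q was 5.09, 20.1 and 20.1 in vehicle replicates 1, 2 and 3 and 10.8, 15.8 and 18.7 in estradiol replicates 1, 2 and 3, from 7, 18 and 19 and from 10, 14 and 17 summit fragments. The lowest value was in the shortest list and the groups overlapped. Heights depend on the depth of each library and are given as the authors' values, not as a test between lists.

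Ncoa5, known as a coactivator independent of the receptor's ligand-dependent activation domain, was the only gene with both gene-end and distal peaks in all 6 lists. The region over its start (chr2:165034774-165035036) had −log10 q of 2.11, 14.2 and 14.6 in the vehicle and 4.42, 6.20 and 10.2 in the estradiol libraries. A further region 8.32 kb beyond the start side of the gene (chr2:165043190-165043659) was above it in each list, with 10.6, 19.0 and 29.1 in the vehicle and 15.6, 16.3 and 18.1 in the estradiol libraries. In both regions the estradiol values lay between the lowest and the highest vehicle value.

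The p160 genes themselves (Ncoa1, Ncoa2 and Ncoa3) had distal peaks and no gene-end peaks. At Ncoa2, which encodes SRC-2, a region 1.61 kb inside the gene from its nearer end (chr1:13372479-13372618) was in 5 lists. The −log10 q was 9.54 and 11.7 in vehicle replicates 2 and 3 and 10.9, 7.07 and 6.54 in the estradiol libraries, with vehicle replicate 1 the list without a peak. Ncoa1, which encodes SRC-1, had distal peaks in vehicle replicate 1 (−log10 q 2.02) and estradiol replicate 1 (3.80 for the higher), in 3 regions of 1 list each. Ncoa3 had distal peaks in both replicate 3 lists. At Ncoa7 a region 3.30 kb outside the gene, near a tRNA gene, was in vehicle replicate 3 and estradiol replicates 1 and 3, with −log10 q of 5.21, 2.74 and 4.61.

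Of the 4 Mediator genes, Med13, which encodes the subunit that joins the kinase module to the core, had a region 678 bp beyond its start side in all 6 lists (chr11:86358274-86358495). The −log10 q was 6.93, 15.7 and 24.2 in the vehicle and 10.2, 8.43 and 20.8 in the estradiol libraries, and the groups overlapped. At Med1, which encodes the subunit that contacts nuclear receptors directly, the region at chr11:98193313-98193425 was in replicates 2 and 3 of both groups: 2.54 and 5.00 in the vehicle and 6.48 and 8.31 in the estradiol libraries, on 4 and 6 and on 7 and 8 fragments. The non-coding RNA gene Gm38963 has an end within 1 kb of the Med1 region. Med13l had a gene-end peak in estradiol replicate 2 and a distal peak in vehicle replicate 3.

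None of the 5 acetyltransferase genes had a peak in all 6 lists at either place. Of all genes, 9.39% had gene-end and 4.51% distal peaks in all 6. Ep300, which encodes p300, had 2 gene-end regions upstream of its start, at chr15:81585116-81585227 and chr15:81585326-81585417. In vehicle replicates 2 and 3 the second had −log10 q values of 9.40 and 13.7, and in estradiol replicates 2 and 3 values of 9.27 and 13.3; the first had peaks in the same 4 lists and in estradiol replicate 1 (2.69). In the second region, values of the same replicate number lay closer to each other than values of the same group. Crebbp, which encodes CBP, the paralog of p300, had no gene-end peak, and a region 53.1 kb inside it from the nearer end (chr16:4160649-4160893) was in 4 lists with 7.66 and 6.46 in vehicle replicates 2 and 3 and 8.18 and 9.65 in estradiol replicates 1 and 3. Kat2a (GCN5) had gene-end peaks in replicates 2 and 3 of both groups, and Kat2b (PCAF) and Kat5 (TIP60) had distal peaks in 2 lists and in 1.

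Histone and arginine methyltransferase and demethylase genes had gene-end peaks at 5 of 6 members (37.7% of all genes). Those of Prmt1, Kdm1a and Kdm4b were in all 6 lists (9.39% of all genes). Prmt1 encodes an arginine methyltransferase that acts on histone H4 and joins p160 complexes. Its region (chr7:44986396-44986905), over the window printed above, had −log10 q of 13.5, 58.3 and 71.6 in the vehicle and 23.9, 49.4 and 90.7 in the estradiol libraries, from 17, 51 and 67 and from 26, 46 and 74 fragments. That ranks at the 99.5 percentile of its lists at the median, and the highest summits lay 46 to 83 bp upstream of the annotated start. An end of the long non-coding RNA gene Gm15545 lies within 1 kb, and the 2 genes cannot be told apart as the peak's target. The Kdm1a region (chr4:136602743-136602874), at the gene of the LSD1 demethylase, was far lower, at 2.02, 7.59 and 10.3 in the vehicle and 3.52, 2.57 and 9.08 in the estradiol libraries.

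Kdm4b, which encodes a histone H3 lysine 9 demethylase known as an estrogen-induced partner of ERα in breast cells, had a gene-end region with 3.90, 9.23 and 14.4 in the vehicle and 13.8, 10.2 and 10.1 in the estradiol libraries (chr17:56325608-56326055). It also held the only region of the 43 genes with a peak in 3 estradiol lists and 0 vehicle lists, which is 1 of 124 (0.806%) against 0.737% of all regions. This region lay 32.4 kb inside the gene from its nearer end, at chr17:56371200-56371357. In estradiol replicates 1, 2 and 3 the −log10 q was 2.93, 3.25 and 3.62, the fold enrichment 4.80, 4.89 and 5.26 and the summit 5, 5 and 6 fragments, near the smallest called. The peaks of replicates 1 and 3 did not overlap each other (56371218 to 56371250 and 56371303 to 56371357) and were joined only by that of replicate 2. Lists of equal length, −log10 q of at least 3, or 50% cover of the region left 0 such regions, as did leaving out estradiol replicate 2. Without vehicle replicate 2 there were 2, with a Zmynd8 region added, and without estradiol replicate 1 there were 2, with an Arid1a region added.

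Kmt2c, which encodes an H3 lysine 4 methyltransferase of enhancers, was the single gene with gene-end peaks in at least 2 lists of a group and none of the other (1.04% of all genes had that for vehicle, 1.03% for estradiol). The region, 838 bp beyond its start side (chr5:25499693-25499722), had −log10 q values of 4.98 (vehicle replicate 2) and 2.90 (vehicle replicate 3), on 7 and 5 fragments. The non-coding RNA gene 4831440E17Rik has an end within 1 kb of it. Kmt2c also had 7 distal regions of 1 list each, in 3 vehicle and 2 estradiol lists. The highest of them was in estradiol replicate 3 (chr5:25436258-25436304), with −log10 q of 6.77 on 7 fragments. Carm1, whose arginine methyltransferase acts with p160 coactivators, had gene-end peaks in all lists but estradiol replicate 3. At Kmt2d, the paralog of Kmt2c, a region 101 bp from the far end of the gene lay nearer to Prkag1 and was given to it.

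All 4 SWI/SNF genes had a gene-end peak in some list (37.7% of all genes). Their 30 regions included 22 of a single list (58.9% of all regions). Smarca4, which encodes the BRG1 ATPase, had a region over its start in all 6 lists (chr9:21615945-21616189). Its −log10 q was 6.54, 7.03 and 30.6 in the vehicle and 8.05, 12.6 and 7.86 in the estradiol libraries, with vehicle replicate 3 far above the other 5. Smarca2, which encodes the alternative ATPase BRM, had a gene-end region (chr19:26605108-26605194) in replicate 2 of each group, at 7.50 and 6.60. A distal region of Smarca2, 74.7 kb inside (chr19:26679798-26679969), was in replicate 3 of each group, at 7.25 and 9.30. The highest Smarca2 region, 2.89 kb inside (chr19:26607965-26608024), was in vehicle replicate 3 alone, at 14.1 on 15 fragments. Arid1b, the longest gene of the set at 353 kb, held 14 distal regions, of which the most widely shared was in 2 lists (chr17:5321030-5321108, vehicle replicate 3 and estradiol replicate 2).

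Among the 10 genes of the NCoR, deacetylase and Sin3 group, 0 had gene-end peaks in all 6 lists (9.39% of all genes). Distal peaks in all 6 (4.51% of all genes) were at 4: Ncor1, Hdac4, Sin3a and Zmynd8. In 3 of these the distal region lay within 1 kb of an annotated transcript start inside the span, the starts whose upstream sequence is printed above. Counted over the whole coregulator set, 3 of 8 distal regions in all 6 lists (37.5%) lay that close to an annotated start. Over all genes the share was similar, at 34.7%. If annotated starts were counted as gene ends, a choice made after seeing the data, 14 coregulator genes would have such peaks in all 6 lists (10.3% of all genes). The genes added were Hdac4, Sin3a, Zmynd8 and Arid1a. At Arid1a the peaks lay at different places, and its most widely shared region was in 3 lists.

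Zmynd8, which encodes a chromatin reader with a bromodomain, PHD and PWWP modules that works with deacetylase and demethylase complexes, had the highest peak of the set. Its region (chr2:165884671-165884847), 14.1 kb inside the gene, reached −log10 q values of 71.8, 138 and 281 in vehicle replicates 1, 2 and 3 and 96.3, 134 and 265 in estradiol replicates 1, 2 and 3. The summits held 57, 102 and 201 fragments in the vehicle and 74, 97 and 190 in the estradiol libraries, so values of the same replicate number lay near each other and the groups overlapped. The 6 summits lay within 12 bp, 60 to 72 bp downstream of the start, and the 6 peaks were 168 to 177 bp wide. An end of the non-coding RNA gene 1810021M19Rik lies within 1 kb.

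Zmynd8 also held the only region found in 3 vehicle lists and 0 estradiol lists, 1 of 124 (0.806%) against 0.112% of all regions. It lay 43.05 kb inside the gene from its start side and 2241 bp downstream of an annotated inner start (chr2:165855804-165855932). The −log10 q was 3.54, 4.68 and 5.37 in vehicle replicates 1, 2 and 3, on 6, 6 and 8 fragments, with fold enrichments of 5.48, 5.77 and 6.28. With lists of equal length or 50% cover there were 0 such regions. Without vehicle replicate 1 there were 3, with a Carm1 gene-end region and the Kmt2c gene-end region added, and without estradiol replicate 3 there were 2, with an Ncor1 region added. A further Zmynd8 region (chr2:165849318-165849371) went the other way, with 5.30 in vehicle replicate 2 and 2.11, 6.93 and 6.77 in estradiol replicates 1, 2 and 3.

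The Sin3a region, at the gene of the Sin3 deacetylase scaffold, ended 45 bp before an annotated start and 3.87 kb inside the span (chr9:57075860-57076331). It had −log10 q of 22.8, 26.8 and 56.8 in the vehicle and 22.3, 28.4 and 71.5 in the estradiol libraries. The non-coding RNA gene 2700012I20Rik has an end within 1 kb of it. At Hdac4, a class IIa deacetylase of neurons and muscle, the region at an inner start (chr1:92180266-92180630) had 11.1, 23.6 and 27.0 in the vehicle and 23.02, 30.7 and 10.9 in the estradiol libraries. Ncor1, the corepressor itself, had no gene-end peak and 3 neighbouring regions 24.8 to 29.0 kb inside from its far end. The first (chr11:62340481-62340630) was in all 6 lists, with 3.90, 3.61 and 12.5 in the vehicle and 3.00, 6.60 and 15.7 in the estradiol libraries. The second (chr11:62343007-62343310) was also in all 6, with 5.03, 3.79 and 11.4 in the vehicle and 2.96, 2.57 and 6.63 in the estradiol libraries. The third (chr11:62344661-62344844) was in all vehicle lists (5.03, 3.73 and 14.3) and in estradiol replicate 3 (3.26). In the first region replicate 3 was the highest of its group in both groups.

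**Figure D4:**
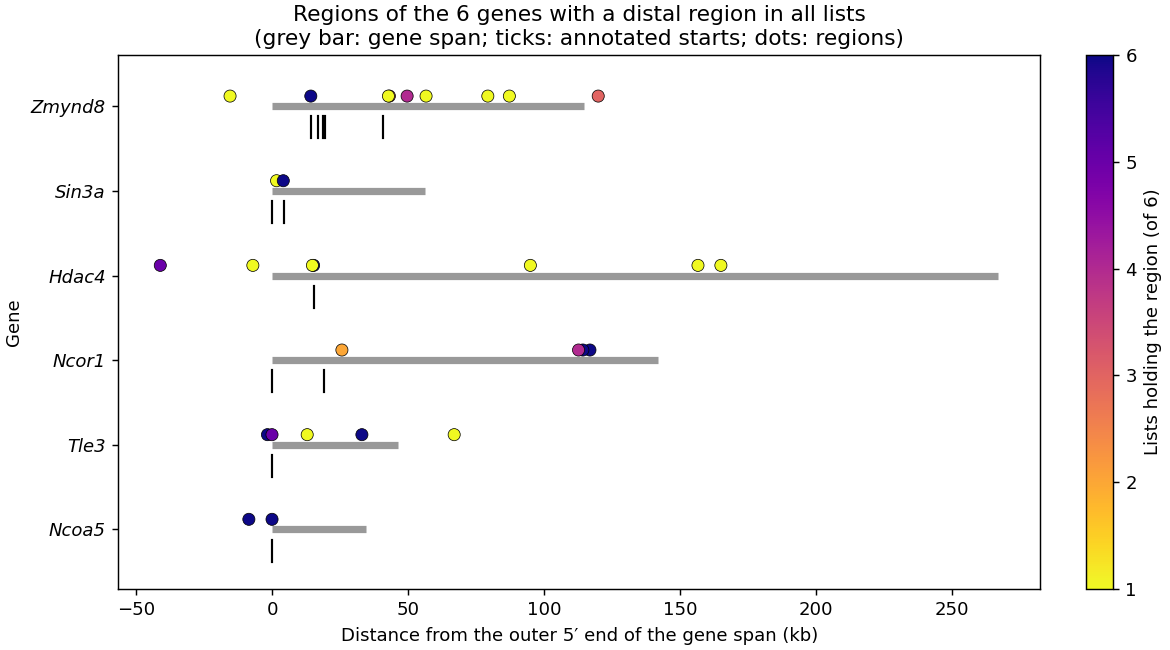
Positions of the regions of the 6 genes with a distal region shared by all 6 lists, as distance in kb from the outer 5′ end of the gene span; grey bars are gene spans, ticks annotated starts and dots regions coloured by the number of lists. The 6-list regions of Zmynd8, Sin3a and Hdac4 sit at ticks inside the span, and those of Ncor1 far from its ticks.

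Gps2 and Hdac1, both parts of deacetylase corepressor complexes, had gene-end peaks in every list but vehicle replicate 1. At Gps2 (chr11:69913879-69914026) the −log10 q was 9.63 and 5.74 in vehicle replicates 2 and 3 and 4.80, 16.1 and 11.9 in the estradiol libraries. At Hdac1 (chr4:129542686-129542829) it was 6.82 and 15.9 and then 6.76, 3.45 and 4.27. The highest value was that of estradiol replicate 2 at Gps2 and that of vehicle replicate 3 at Hdac1. An end of the coding gene Neurl4 lies within 1 kb of the Gps2 region. Tbl1xr1 and Hdac2 had a gene-end peak in 1 list each, in vehicle replicate 2 and estradiol replicate 1, and Lcor, a ligand-dependent corepressor, had distal peaks in 3 lists.

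All 5 genes of the Tle and Trim group had gene-end peaks (37.7% of all genes). Those of Trim24, Tle1 and Tle4 were in all 6 lists (9.39% of all genes). Trim24 encodes a bromodomain protein that binds liganded receptors. Its region (chr6:37870535-37870842) had −log10 q of 5.19, 4.09 and 12.3 in the vehicle and 7.94, 13.8 and 5.95 in the estradiol libraries. Tle4, a Groucho corepressor gene, had 9.26, 18.1 and 14.9 in the vehicle and 13.5, 6.53 and 19.3 in the estradiol libraries (chr19:14598051-14598557). Tle3, known as a partner of FOXA1 at estrogen-responsive sites in breast cells, had 2 distal regions in all 6 lists besides its gene-end region in 5. The higher, 1.55 kb before the gene and near an end of the non-coding RNA gene Gm34157 (chr9:61370437-61370775), had 6.15, 20.0 and 12.6 in the vehicle and 5.27, 11.4 and 13.8 in the estradiol libraries. Vehicle replicate 1 and estradiol replicate 1 were the lowest in that region, and the groups overlapped in all of these.

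The last 2 genes, Safb and Phb2, encode corepressors of ERα, a scaffold attachment factor and a prohibitin. At Safb a region over the start (chr17:56584748-56585024) was in all 6 lists, with −log10 q of 7.60, 10.98 and 10.7 in the vehicle and 7.07, 10.7 and 10.9 in the estradiol libraries. An end of the paralog Safb2 lies within 1 kb, and single peaks lay nearer to it in replicate 1 of each group, so Safb itself was counted in 4 lists. At Phb2 the region at chr6:124712049-124712320 was in replicates 2 and 3 of both groups, with 4.55 and 7.09 and then 8.40 and 6.41. An end of Emg1 lies within 1 kb, and Phb2 itself was counted in the replicate 2 list of each group.

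Gene-end regions lay at the start of these genes. Of the 28 whose gene has a strand in the tables, 28 were at the start side, against 93.2% for all genes. Another gene's end, coding or not, lay within 1 kb of 10 of 33 gene-end regions. Gene length went with distal regions: the 15 genes of at least 100 kb held 63 distal regions and the 28 shorter ones 28, and across the 43 genes the Pearson r of span and distal regions was 0.711 and the Spearman rho 0.649. Gene-end peaks in all 6 lists were at 1 of the 15 long genes and 9 of the 28 shorter ones (9.39% of all genes). These are descriptions over genes that share the same 6 libraries.

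**Figure D5:**
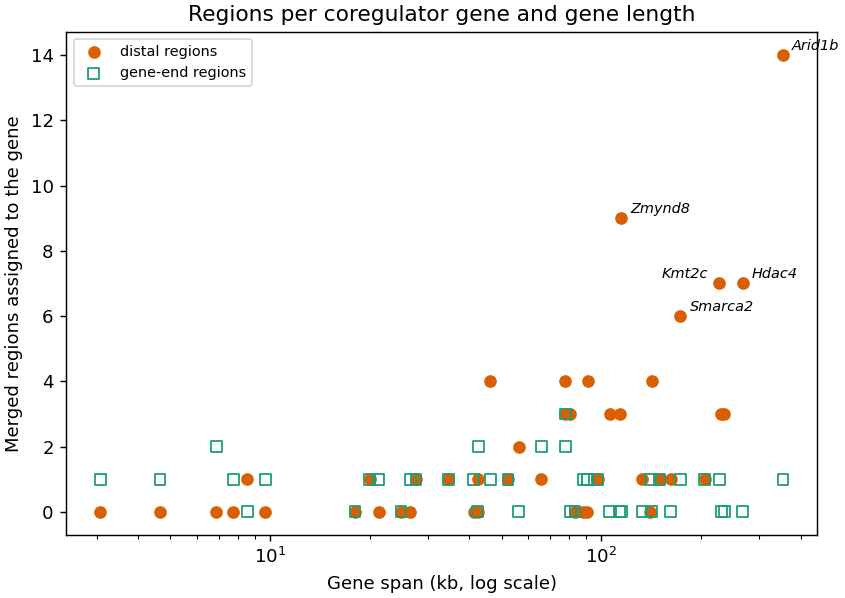
Number of merged distal regions (filled circles) and gene-end regions (open squares) of each coregulator gene against its span in kb (log scale). Distal regions are most numerous at long genes, up to 14 at Arid1b (353 kb), and gene-end regions number 0 to 3 at any length.

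A list of 56 further coregulator genes outside the set was counted in the same way, and all were found in the gene table. The list was drawn up with earlier results of these data known, so its counts are a description and no independent check. Gene-end peaks in all 6 lists were at 14 of these genes (25.0%, against 9.39% of all genes) and in at least 1 list at 40 (37.7% of all genes). Distal peaks in all 6 lists were at 6 (10.7%, against 4.51% of all genes) and in at least 1 at 30 (40.8% of all genes). Their median span was 41.3 kb. Of their 145 regions, 19 were in all 6 lists (13.1%, against 7.27% of all regions), 4 in 3 estradiol and 0 vehicle lists (2.76%, against 0.737%), and 0 in 3 vehicle and 0 estradiol lists (0.112% of all regions). The highest of the 4 lay 45.4 kb inside Rere, which encodes an atrophin-family corepressor (chr4:150576364-150576563), with −log10 q of 9.90, 15.2 and 14.1 in estradiol replicates 1, 2 and 3, on 10, 13 and 14 fragments. Gene-end regions of this kind were found at Prmt2 (chr10:76237831-76238035; 4.13, 4.06 and 7.49) and at Med16 (chr10:79908929-79908984; 3.26, 3.76 and 6.59). With 3 libraries against 3, no single region can reach p below 0.1.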

How the data were processed

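ERα CUT&RUN was measured in 3 vehicle and 3 estradiol libraries. Per the submitters' processing notes, the tools were cutadapt, Bowtie2, Picard, SAMtools, deepTools and MACS2 and the build mm10; their roles, versions and any control library are not given in the sources used here. The deposited lists give per peak an integer score, a ratio (fold enrichment at the summit), a −log10 p-value and a −log10 q-value, all set by the authors; the peak names carry a q-value threshold of 0.01, and the score is 10 times the −log10 q, rounded down. These heights were used to describe and rank peaks within a list, not to test differences between lists. More deeply sequenced libraries can give longer lists and higher −log10 values.

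Peaks were assigned to genes and merged (1 bp) with Python 3.11.15, NumPy 2.4.6, pandas 2.3.3 and SciPy 1.17.1, with gene spans, without exons, from RefSeq (GRCm38.p6). A region takes the class of its merged extent, and a gene is counted by its single peaks. Summit fragments were worked out from fold and −log10 p (Poisson upper tail, pseudocount of 1, tolerance 0.0002), which matched whole fragments for 100% of peaks in each list; they rest on that formula. Per-library values were tested by exact permutation, two-sided. Placement, merging and tests were tested on simulated data.

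The members, gene lists, motifs and rules were chosen with earlier results of these data known. Per-library values were given for regions in 3 lists of a group and 0 of the other, genes with peaks in at least 2 lists of a group and 0 of the other, the 5 highest-ranked gene-end regions in all 6 lists, the 5 highest-ranked of the distal regions in all 6 lists, and the first gene of each role; other values shown were chosen after they were seen. Alternatives were −log10 q of at least 3, equal list lengths, other windows and reaches, 50% cover, wider merging, each batch alone, each library left out, a replicate block and, added after seeing the data, annotated starts as gene ends. Among the further coregulator genes, 1 region counted is not reported here.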

Additional observations from a re-analysis of the deposited data

How the results depend on the processing

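In the settings with 6 libraries, where exact permutation p can reach 0.1, the smallest over the 3 per-library differences was 0.2. With a library left out the smallest exact permutation p was also 0.2. With lists of equal length the difference was 0 genes for gene-end and 0 for distal peaks. The gene-end difference of 2 was -2 in replicate 3 alone, and ranged from -1.5 (without vehicle replicate 1) to 4 as each library was left out. The distal difference of -1 was 1.67 at −log10 q of at least 3, 1 in replicates 1 and 2, and ranged from -3.5 to 2.5 as each library was left out, reaching 2.5 when vehicle replicate 3 and 0.5 when estradiol replicate 2 was left out. The difference in the percent of peaks was 0.0123 in replicate 3 and -0.109 to -0.00305 over the left-out libraries. Genes with a gene-end peak in all lists numbered 6 with equal lengths and 10 to 14 over the left-out libraries. Genes with a distal peak in all lists numbered 22 when every gene within reach was counted and 7 to 9 over the left-out libraries. Estradiol-only regions numbered 0 at −log10 q of at least 3, 0 with equal lengths and 0 with 50% cover, and 0 to 2 over the left-out libraries. Vehicle-only regions numbered 0 with equal lengths, 0 with 50% cover, 2 when peaks within 500 bp were merged, and 1 to 3 over the left-out libraries. Regions in all lists numbered 12 with equal lengths, 39 when every gene within reach was counted, 7 with 50% cover, and 19 to 24 over the left-out libraries. Shorter lists and stricter cover lower such counts by construction; other causes were not tested.

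In a replicate block by number, the differences stayed 2 genes, -1 gene and -0.0700 percentage points, with exact paired p = 0.75, 0.75 and 0.5 (smallest possible 0.25), so no call changed. Over 39374 regions the deviations of same-numbered libraries correlated at -0.0293, 0.0213 and -0.0148, so the numbers were not taken to pair the libraries. Summits of 4 to 6 fragments limit what a missing peak can show.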
